A study of Saccharomyces cerevisiae with 17 samples.

Results

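The 10 gene identifiers described here form 5 divergent pairs of budding yeast (Saccharomyces cerevisiae), in which neighbouring genes are read away from each other from a shared intergenic region. In each pair nearly all counts stood under 1 identifier. The pairs were UTR5 (YEL035C) with HYP2 (YEL034W), YHR173C with ENO2 (YHR174W), YJL052C-A with TDH1 (YJL052W), JID1 (YPR061C) with FCY1 (YPR062W), and YLR358C with ADE13 (YLR359W). They were chosen for the difference in counts within the pair, and all 10 were found among the 5797 identifiers of each table. That difference is therefore given as a description, with no test.

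The counts came from SMORE-seq, a method in which adapters are joined to the 5′ ends of RNA to map where transcripts begin. All cells were wild-type BY4741, a haploid laboratory strain with deletions in HIS3, LEU2, MET15 (named MET17 in the gene table) and URA3, grown in rich liquid YPD medium to an OD600 of 0.8. RNA was either freed of ribosomal RNA (ribo depletion, 3 samples deposited as 1 table, with no enzyme named in their titles) or selected by its poly(A) tail. Of the poly(A)-selected libraries, 1 was treated with Tap, taken here as tobacco acid pyrophosphatase (TAP), which opens the cap, and 1 with phosphatase (CIP) before TAP, so that uncapped 5′ phosphates are not ligated. The 12 chromatin samples of the series were not analysed here.

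In total, 2821480 counts were listed for ribo depletion, with 864536 in TAP and 1097457 in CIP/TAP. Where an identifier was at 0, up to 3 counts remain possible, equal to 1.06, 3.47 and 2.73 CPM (counts scaled to a common total) in that order. Of the genes deleted in the strain, LEU2, URA3 and MET17 were at 0 in the 3 tables, and HIS3 had 655, 650 and 730 counts. Since 52.7 to 58.5% of all identifiers were at 0 in a single table, these zeros do not show the deletions. Nor do the counts under HIS3 show an intact gene. No group had replicate values, so every interval below covers counting error only and no p-value is given. The sources used here do not state which feature was counted or how strand was handled, so a count is reported as listed under an identifier and not as the expression of that gene.

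Divergent genes are common in the compact yeast genome. A shared nucleosome-depleted region typically lies between their starts, and each side has its own +1 nucleosome, the position at which the histone variant H2A.Z is typically placed. The named W-strand genes of the pairs belong to central metabolism and translation. HYP2 encodes eIF5A, the translation factor that carries hypusine. ENO2 encodes an enolase and TDH1 a glyceraldehyde-3-phosphate dehydrogenase, both enzymes of glycolysis. FCY1 encodes cytosine deaminase, which turns cytosine into uracil, and ADE13 encodes adenylosuccinate lyase of purine synthesis. On the other strand JID1 encodes a DnaJ-type protein. The other high identifiers are UTR5 and 3 that carry only systematic names.

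Positions come from the R64 gene table, the assembly that sacCer3 names. The lengths of all 10 genes are multiples of 3, so the distances below are between coding starts and include the untranslated leaders. UTR5 (chromosome V, 85045 to 85545) and HYP2 (85676 to 86149) start 130 bp apart. YHR173C (chromosome VIII, 450815 to 451153) and ENO2 (451327 to 452640) start 173 bp apart. YJL052C-A (chromosome X, 337884 to 338003) and TDH1 (338271 to 339269) start 267 bp apart. JID1 (chromosome XVI, 675977 to 676882) and FCY1 (677165 to 677641) start 282 bp apart. YLR358C (chromosome XII, 843487 to 844050) and ADE13 (844282 to 845730) start 231 bp apart. YLR358C shares 514 bp with RSC2, a gene of the RSC remodeller on the W strand, and without a stated strand setting reads from the overlap cannot be told apart. RSC2 itself was at 137 counts after ribo depletion and at 0 in both poly(A) libraries.

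**Figure D1:**
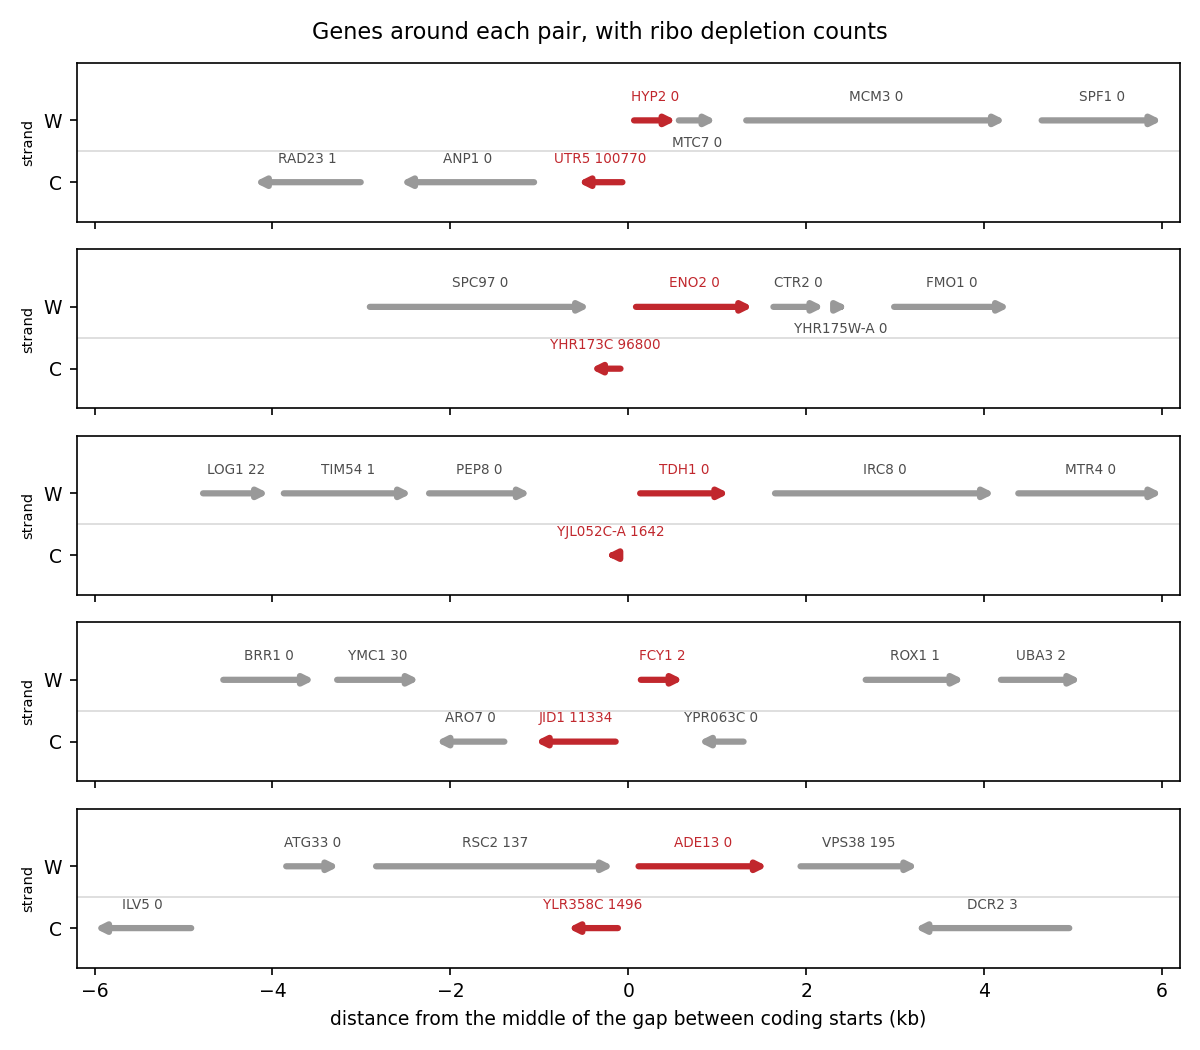
Counted genes that start within 5 kb of the middle of each gap, by distance in kb on the horizontal axis and by strand (W or C) on the vertical axis, with the ribo depletion count beside each name. Arrows point in the direction of transcription and are cut at 6 kb, and the pairs, in red, hold the highest count of each locus under the C-strand identifier (100770, 96800, 1642, 11334 and 1496).

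The translation factor gene had the most unequal pair. HYP2 was listed with 0 counts in ribo depletion, 0 in TAP and 1 in CIP/TAP. UTR5 was listed with 100770, 121682 and 133472 counts in the same order. UTR5 was at least 33590-fold higher than HYP2 in ribo depletion and at least 40561-fold higher in TAP, with HYP2 at the floor of 3 counts per table. In CIP/TAP the single HYP2 count gave a ratio of 133472 with an exact 95% interval from 23955 to 5271901, which is wide because it rests on 1 count. UTR5 was the identifier with the most counts of all in TAP and CIP/TAP and the second in ribo depletion, where it held 3.57% of the table against 14.1% and 12.2%.

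Of the pairs with a glycolytic gene, that of ENO2 came next in depth. YHR173C had 96800 counts in ribo depletion, 30242 in TAP and 31969 in CIP/TAP, ranks 3, 2 and 2 of the tables. ENO2 had 0, 38 and 26 counts. ENO2 was thus the one low identifier above the floor in any table, and only in the poly(A)-selected libraries. YHR173C was at least 32267-fold higher in ribo depletion, 796-fold higher with TAP (interval 580 to 1125) and 1230-fold higher with CIP/TAP (839 to 1883). The share of the pair under ENO2 was 0.125% with TAP (0.0888 to 0.172%) and 0.0813% with CIP/TAP (0.0531 to 0.119%), intervals that overlap. In ribo depletion 0 of 96800 allows a share of up to 0.0031% at the floor of 3 counts, or 0.0038% by the exact interval.

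TDH1 was at 0 in the 3 tables, beside 1642 counts under YJL052C-A in ribo depletion, 563 in TAP and 514 in CIP/TAP. YJL052C-A is a coding sequence of 120 bp, the shortest of the 10. It was at least 547-fold, 188-fold and 171-fold higher than TDH1. These smaller bounds follow the smaller counts of the pair, since 0 of 514 counts still allows a share of up to 0.584% under TDH1.

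The nucleotide genes were the remaining pairs. FCY1 was listed with 2 counts after ribo depletion and with 0 in both poly(A) libraries, beside 11334, 2074 and 2634 under JID1. JID1 was 5667-fold higher in ribo depletion (interval 1568 to 46800) and at least 691-fold and 878-fold higher in TAP and CIP/TAP. ADE13 was at 0 in the 3 tables, beside 1496 counts under YLR358C in ribo depletion, 2815 in TAP and 2885 in CIP/TAP. YLR358C was at least 499-fold, 938-fold and 962-fold higher. In these pairs, too, the range of the high identifier over the 3 tables lay far above every count of its partner.

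**Figure D2:**
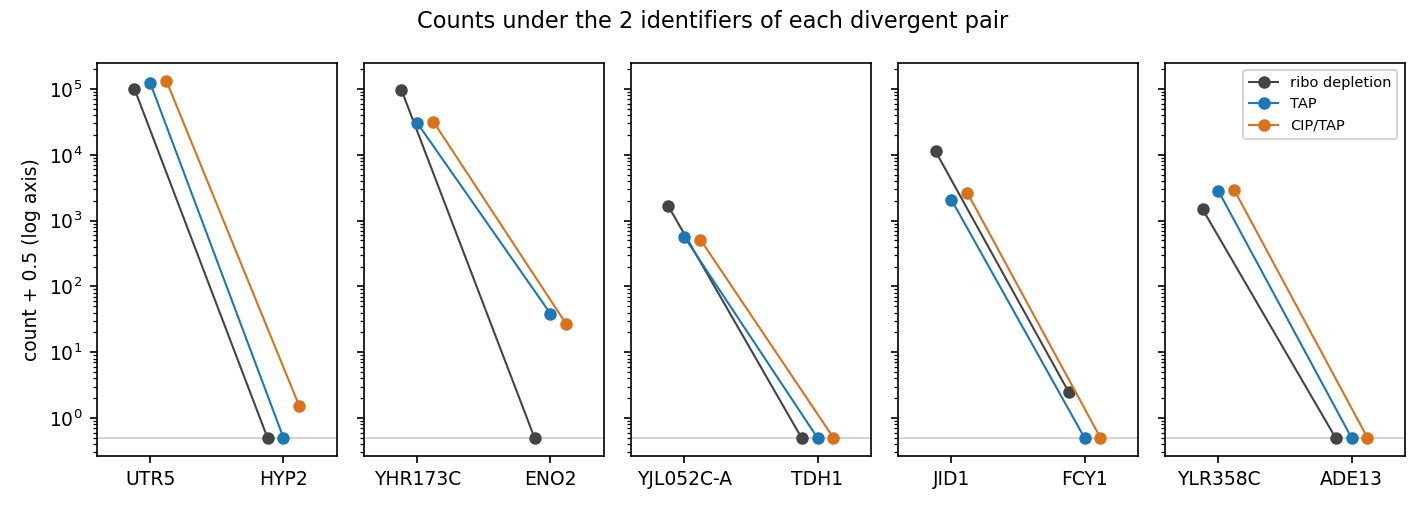
Counts plus 0.5 on a log axis under both identifiers of each pair, with 1 line for each of the ribo depletion, TAP and CIP/TAP tables. The lines descend from the C-strand to the W-strand identifier in all 3 tables, and ENO2, with 38 and 26 counts in the poly(A) libraries, stands above the grey line that marks a count of 0.

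Together the 10 identifiers held 7.52% of the ribo depletion counts, 18.2% of TAP and 15.6% of CIP/TAP. The 5 W-strand genes contributed 2, 38 and 27 counts to these sums. The high identifier was on the C strand in every pair. Among 402 divergent pairs that lay within 1000 bp and had at least 200 summed counts in each table, the C identifier was higher in all 3 tables in 158 and the W identifier in 161, a nearly even split by strand over the whole set. Among the 29 of these pairs (7.21%) that were at least 100-fold unequal in all 3 tables, the C identifier was higher in 18 and the W identifier in 11.

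The pairs were placed in this set by the smallest absolute log2 difference (0.5 added to each count) over the 3 tables. UTR5 and HYP2 ranked 1 at 16.44, JID1 and FCY1 ranked 2 at 12.02, and YLR358C and ADE13 ranked 3 at 11.55. YJL052C-A and TDH1 ranked 7 at 10.01 and YHR173C and ENO2 ranked 11 at 9.62. The name most one-sided thus held for 3 of the 5 by this measure, and for 1 of the 5 with counts per kb of coding length. The median of the 402 pairs was 1.83. A difference of at least 100-fold in the same direction in all 3 tables was found in 29 pairs (7.21%), the 5 included, and nothing is read from that count because the same values chose them. YEL067C and SIT1, which ranked 12 at 9.54, stood just below YHR173C and ENO2. Having 1 identifier at 0 in all 3 tables, as for TDH1 and ADE13, was seen in 14 of the 402 pairs (3.48%).

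**Figure D3:**
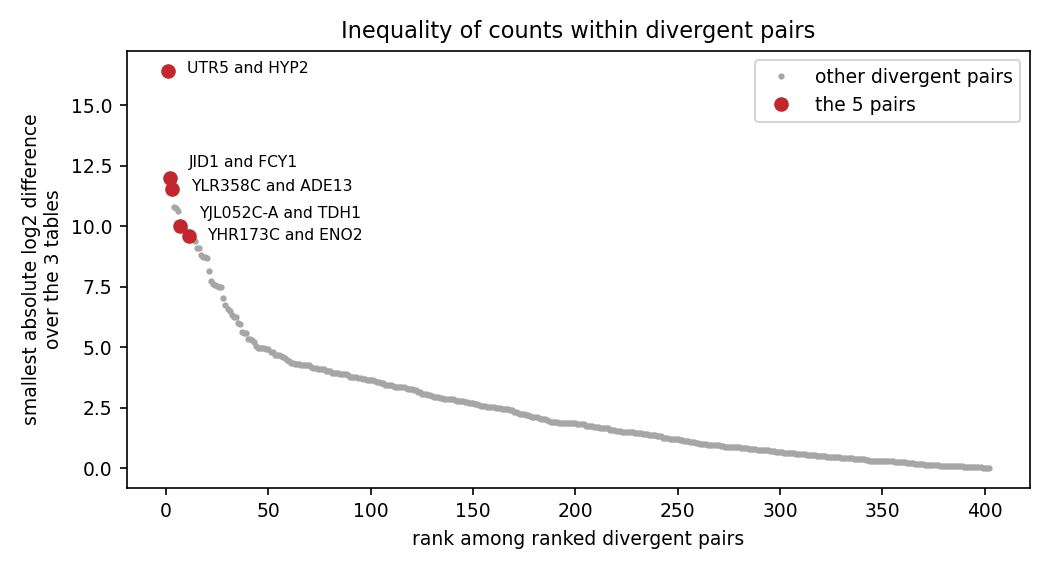
Smallest absolute log2 difference over the 3 tables (vertical axis) against rank (horizontal axis) for 402 divergent pairs, the 5 pairs in red. The pair of UTR5 and HYP2 stands apart at 16.44, and the others lie between 9.62 and 12.02 among other pairs.

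The coding length of the high identifier was at most 600 bp in 4 of the 5 pairs, JID1 with 906 bp being the exception. Of 319 pairs in which the same identifier was higher in all 3 tables, this held for 55, and of the 29 pairs at least 100-fold unequal it held for 15. The high identifier was the shorter in 3 of the 5 pairs, in 132 of the 319 (41.4%) and in 16 of the 29 (55.2%). High identifiers of at most 600 bp thus made up a larger share of the 5 pairs, and of the 29 that include them, than of the 319. With 5 pairs chosen by their counts, these shares are a description only.

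At each locus 1 identifier held most of the counts, from 80.4% to 100% over the 5 loci and 3 tables. The low count of its partner was part of how the pairs were chosen. Within 5 kb of the middle of the gap, UTR5 held at least 99.991% of the counts in each table and YHR173C 100%, 99.9% and 99.9%. JID1 held 99.7% in ribo depletion, 96.6% in TAP and 95.6% in CIP/TAP. YJL052C-A held 98.6%, 88.7% and 80.4% in the same order, and LOG1, with 22, 72 and 86 counts, was the largest of the other identifiers there. YLR358C held 81.7% in ribo depletion, where VPS38 had 195 counts and RSC2 137, and 99.4% and 99.7% in TAP and CIP/TAP. Of the genes nearest beyond the 3′ ends, ANP1, MTC7, SPC97, CTR2, PEP8, IRC8 and YPR063C were at 0 in the 3 tables. ARO7, beyond JID1, had 0, 27 and 5 counts. VPS38, beyond ADE13, had 195, 0 and 8, and ATG33, beyond YLR358C, had 0, 1 and 0.

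The comparison of CIP/TAP with TAP addressed 5′ ends that carry a phosphate and no cap. Of the 10 identifiers, 6 had at least 50 counts over both libraries, and 0 of them reached a 2-fold difference in either direction. Over 1679 identifiers 37.8% did (22.2% higher and 15.6% lower). The members were chosen by their counts in these same libraries, while the 1679 include identifiers with as few as 50 summed counts. Nothing is therefore read from the 0 about how these 5′ ends respond to CIP. The log2 ratio, scaled with TMM factors, was −0.050 for UTR5 (95% interval −0.061 to −0.039), −0.10 for YHR173C (−0.13 to −0.081) and −0.31 for YJL052C-A (−0.49 to −0.14). For YLR358C the ratio was −0.15 (−0.22 to −0.073), and for JID1 it was 0.16 (0.078 to 0.24). ENO2, with 26 against 38 counts, was at −0.72 (−1.51 to 0.026). These values lay on both sides of 0, and the median of the 6 was −0.13 beside 0.16 over all identifiers. The median over all identifiers shifted by −0.16 with total counts and by −0.20 with upper-quartile scaling, under which JID1 was at −0.043.

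TAP against ribo depletion set RNA selected by its tail against RNA freed of ribosomal RNA, and the enzyme treatment, not named for ribo depletion, cannot be told apart from the selection. Of the 5 identifiers with at least 50 counts, 1 was at least 2-fold higher and 3 were at least 2-fold lower in TAP, beside 31.9% higher and 38.0% lower over 1646 identifiers. YLR358C was at log2 1.33 (1.24 to 1.43) and UTR5 at 0.69 (0.68 to 0.71). JID1 was at −2.03 (−2.10 to −1.96), YHR173C at −1.26 (−1.28 to −1.24) and YJL052C-A at −1.12 (−1.26 to −0.98). The directions of YHR173C and YJL052C-A depended on scaling, since with total counts they were at 0.028 and 0.16. The median over all identifiers shifted by 1.28 with total counts, by 0.37 with upper-quartile scaling and by −0.13 with DESeq2 size factors. Relative to the median identifier (−0.18), YLR358C stood at 1.51, UTR5 at 0.87, YJL052C-A at −0.94, YHR173C at −1.08 and JID1 at −1.85.

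CIP/TAP against ribo depletion used the same ribo depletion table, so its values are no separate evidence. Here 1 identifier was at least 2-fold higher and 3 were lower, beside 36.4% and 35.6% of 1700. YLR358C was at 1.26 (1.17 to 1.35), UTR5 at 0.71 (0.70 to 0.73), YHR173C at −1.29 (−1.31 to −1.27), YJL052C-A at −1.37 (−1.51 to −1.22) and JID1 at −1.80 (−1.86 to −1.73). With total counts 0 were lower and 2, UTR5 and YLR358C, were higher, and the median over all identifiers shifted by 1.05. In all 3 comparisons the 5 high identifiers lay within the middle 80% of the ratios of all measured identifiers. The members were chosen by counts in all 3 tables, while the measured identifiers include some at 0 in 1 table. Nothing is therefore read from this.

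**Figure D4:**
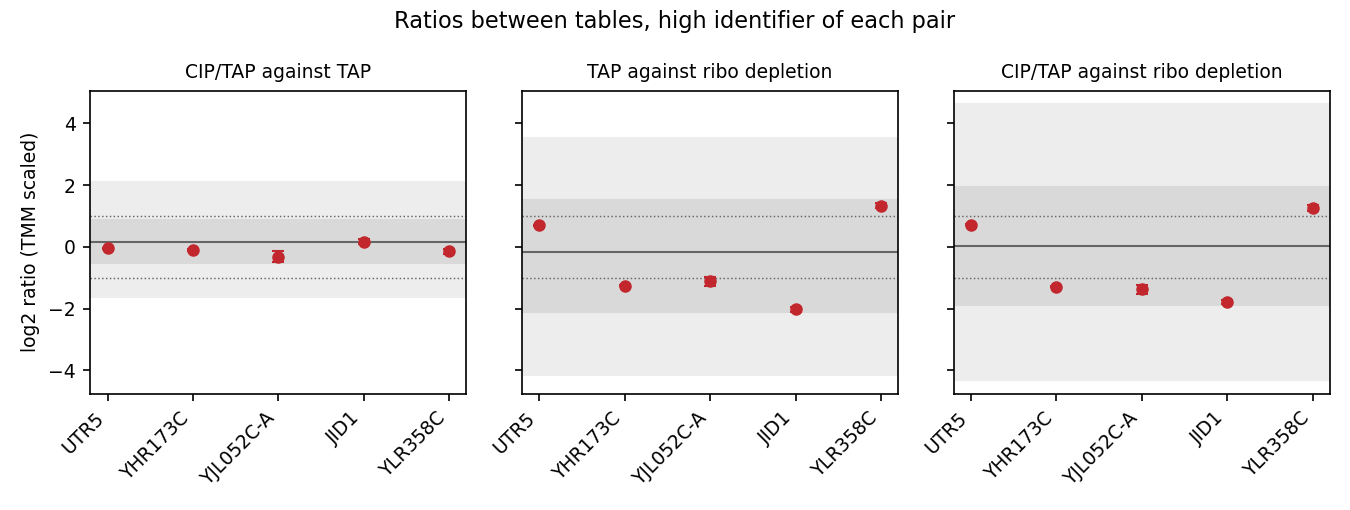
TMM-scaled log2 ratio (vertical axis) of the high identifier of each pair in the 3 comparisons, with exact 95% intervals for counting error. The grey bands span the middle 80% (light) and the middle 50% (dark) of all identifiers with at least 50 counts, and the line is their median. Dotted lines mark 2-fold. No red point leaves the light band, from which nothing is read because the members were chosen by counts in these tables.

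Ratios of counts between high identifiers within a table need no scaling, and coding length cancels when they are compared across tables. UTR5 and YHR173C were nearly level in ribo depletion, with a count ratio of 1.04 (1.03 to 1.05). After poly(A) selection it was 4.02 with TAP (3.97 to 4.07) and 4.18 with CIP/TAP (4.12 to 4.23). JID1 had 7.58 times the counts of YLR358C in ribo depletion (7.18 to 8.00) but 0.737 times as many after poly(A) selection with TAP (0.696 to 0.780), and 0.913 times with CIP/TAP (0.866 to 0.963). YJL052C-A had 1.10 times the counts of YLR358C in ribo depletion (1.02 to 1.18), and 0.20 (0.182 to 0.219) and 0.178 times (0.162 to 0.196) in TAP and CIP/TAP. Of the 10 ratios between high identifiers, that of YHR173C to YJL052C-A moved least, at 59.0 (56.1 to 61.9), 53.7 (49.4 to 58.5) and 62.2 (57.0 to 68.0). Thus the order of the pairs by counts differed between ribo depletion and both poly(A) libraries, by more than counting error and with no replicate to set the spread.

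Per kb of coding length the order in ribo depletion was YHR173C (101204 CPM per kb), UTR5 (71288), YJL052C-A (4850), JID1 (4434) and YLR358C (940), and the intervals of neighbours in this order did not overlap. In TAP it was UTR5 (280935), YHR173C (103188), YLR358C (5773), YJL052C-A (5427) and JID1 (2648). There YLR358C (5562 to 5990) and YJL052C-A (4988 to 5894) could not be separated. CIP/TAP had the order of TAP, at 242753, 85929, 4661, 3903 and 2649 CPM per kb. The 5 W-strand genes were at most at 33.5 CPM per kb, the value of ENO2 in TAP. SMORE-seq maps 5′ ends and the counted feature is not stated, so counts may not scale with coding length. In ribo depletion the division alone puts YJL052C-A (120 bp, 1642 counts) above JID1 (906 bp, 11334 counts). These orders are a description only.

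Other identifiers with a like profile were sought among 448 with at least 200 counts in each table, by the largest absolute difference in log2 CPM over the 3 tables. YJL052C-A was matched most closely, by VPS64 at 0.16 and LDH1 at 0.18. YLR358C was nearest to MNP1 (0.28) and LFT1 (0.34), and JID1 to GPI18 (0.28) and LTV1 (0.35). YHR173C was nearest to ASA1 (0.73) and GFD2 (1.22). UTR5 had no close match, with YHR173C at 2.06 and ASA1 at 2.73. The upstream neighbour of each of these identifiers was divergent, at 173 to 347 bp. So was that of 420 of the 449 identifiers with such counts (93.5%, within 1000 bp), and nothing is read from it. The 93.5% is a share of well-counted identifiers and not of the tables as a whole. All 5797 identifiers held 1186 divergent pairs within 1000 bp. Each likeness rests on 3 tables and is a description.

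Paralogs of HYP2, ENO2 and TDH1 offered a view of related genes at other loci. They were chosen for their kinship after the values had been seen, and the sources used here do not state how reads shared between near-identical copies were counted. ANB1, the paralog of HYP2 used at low oxygen, was at 0 in the 3 tables, and CYC1, which starts 953 bp away in the divergent direction, had 1, 0 and 0 counts. ENO1 had 0, 16 and 0 counts, and its divergent neighbour PUP2, 1786 bp away, was at 0. TDH2 was at 0 in the 3 tables, with 0, 1 and 0 counts under MET3 at 1557 bp. TDH3, with the tandem neighbour PDX1, had 124, 0 and 3 counts. No paralog in this group had a divergent neighbour with a count above 1, but these neighbours lay 953 bp or more away. At 701 to 1000 bp the median summed count of 221 divergent pairs was 0, 1 and 1, so nothing is read from this.

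The pairs were also set beside other genes of their pathways, 59 genes in 4 lists of which 5 are the W-strand genes above. Of 19 other glycolysis and fermentation genes, 6 were at 0 in all 3 tables and 2 had a divergent neighbour within 1000 bp. Of 12 others around eIF5A and translation elongation the numbers were 6 and 4, of 14 in purine synthesis 3 and 6, and of 9 in pyrimidine uptake and salvage 4 and 3. No test across conditions applies to these lists, which are given as counts. For scale, 52.7 to 58.5% of all identifiers were at 0 in a single table.

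Of the 15 other list genes with a divergent neighbour within 1000 bp, 1 had it within 300 bp. That gene was CDD1, which encodes cytidine deaminase and starts 187 bp from ERF2. CDD1 had 1003, 380 and 391 counts and ERF2 304, 118 and 84, so both identifiers of that pair were counted. The next nearest was URK1, a uridine kinase gene, with 18, 58 and 107 counts, while PRP2, 481 bp away, was at 0. ADE1 had 960, 228 and 135 counts with 2, 70 and 212 under BUD14 at 503 bp, and PGK1 had 240, 0 and 0 with 0, 4 and 0 under ADP1 at 872 bp. GLK1, a glucokinase gene, had 0, 31 and 1 counts with 1, 83 and 26 under PDI1 at 616 bp. Outside the 5 pairs, no divergent neighbour in these lists held more than 304 counts in any table.

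**Figure D5:**
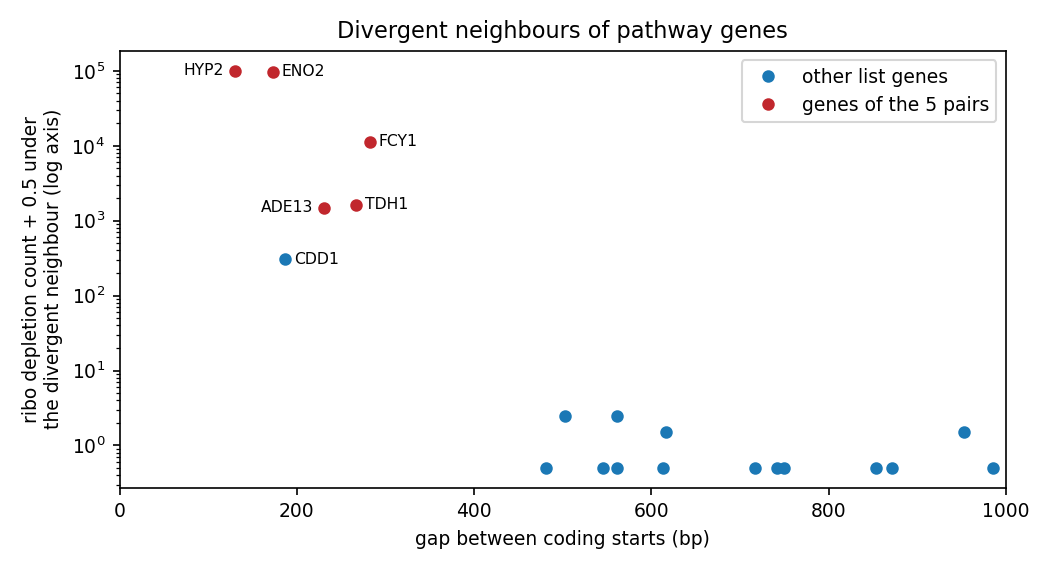
Ribo depletion count plus 0.5 under the divergent neighbour (log axis) against the gap between coding starts in bp, for the list genes with a divergent neighbour within 1000 bp. The genes of the 5 pairs, in red, lie at 130 to 282 bp with 1496 to 100770 counts under the neighbour, CDD1 at 187 bp has 304 under ERF2, and the others lie at 481 bp or more with at most 2.

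The list genes hold too few short gaps outside the 5 pairs to show how counts vary with the gap, so summed counts were set out by gap for all 1186 divergent pairs with both identifiers in the tables. At 0 to 100 bp the medians of 19 pairs were 40 in ribo depletion, 197 in TAP and 143 in CIP/TAP. At 201 to 300 bp, where 3 of the 5 pairs lie, the median summed count of 293 pairs was 913 in ribo depletion, 518 in TAP and 589 in CIP/TAP. At 101 to 200 bp, where the other 2 lie, 76 pairs had medians of 616, 429 and 498. At 301 to 400 bp they were 561, 338 and 434 (170 pairs). At 401 to 500 bp the medians were 18, 35 and 24 (141 pairs), and at 501 to 700 bp they were 0, 2 and 1 (266 pairs). At 701 to 1000 bp they were 0, 1 and 1 (221 pairs). The medians at 0 to 100 bp, from only 19 pairs, were thus below those at 101 to 400 bp in all 3 tables. They were above those at more than 400 bp, where the medians were lowest. The gaps of the 5 pairs had a median of 231 bp beside 277 bp for the 402 ranked pairs.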

How the data were processed

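The authors deposited 3 tables of raw counts, whole numbers listed by gene identifier, as the file headers and the values show. Per the submitters' processing notes, bcl2fastq, BWA 0.6.2, bedtools, featureCounts and the build sacCer3 were used, with no role or order given. How the 3 ribo depletion samples were combined, which feature was counted and how strand was handled are stated nowhere in these sources. The members and lists were chosen with earlier results of these data known.

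Of the identifiers, 5794 matched the R64 gene table, and strand came from W or C in the systematic names. A divergent pair joins a gene to the nearest gene wholly beyond its 5′ end, on the opposite strand and within 1000 bp. Ratios between tables were log2 of (count + 0.5) over library sizes scaled by TMM (edgeR 4.0.16, R 4.3.3), for identifiers with at least 50 summed counts, and 2-fold was the call. Intervals are exact Clopper-Pearson 95% intervals (scipy 1.17.1), conditional on the summed count for ratios. Folds given as at least, and shares allowed by a count of 0, use the floor of 3 counts instead. These bounds are tighter than the exact interval, whose upper limit for 0 of 514 counts under TDH1 is 0.715% and not 0.584%. Reads carry no molecular identifiers, so intervals and floors (3 counts) cover counting error only. Each comparison was run before use on simulated counts in which a chosen set of identifiers was changed by a known factor. The simulated counts varied by counting error only, unlike real libraries. The check thus covers the calculation and not how well calls or scaling hold in these data. DESeq2 1.42.0 supplied alternative size factors.

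Named were the 10 identifiers, the pairs next in rank, the 2 nearest profiles, genes past the 3′ ends, strain genes and, from each list, up to 6 genes by the ribo depletion count of the divergent neighbour.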

Additional observations from a re-analysis of the deposited data

How the results depend on the processing

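The number of identifiers at least 2-fold different depended on scaling and filter. For TAP against ribo depletion, 1 was higher and 3 were lower. Total counts gave 2 higher and 0 lower, upper-quartile factors 2 higher and 1 lower, and both the filter of 10 counts and no filter gave 2 higher, the second being ENO2. For CIP/TAP against ribo depletion, again 1 higher and 3 lower, total counts gave 2 higher and 0 lower, the filter of 10 counts 2 higher and no filter 3 higher. For CIP/TAP against TAP, no filter gave 1 higher, where 0 had been. This was HYP2, with 1 count against 0, which was also among the 3 higher for CIP/TAP against ribo depletion. No filter gave 4 lower in both comparisons with ribo depletion, with FCY1 added on 0 against 2 counts. Both of these changes rest on counts under the floor of 3. With total counts the ratios of YHR173C and YJL052C-A for TAP against ribo depletion turned to 0.028 and 0.16, as the scale moved for all identifiers. Of the 5 pairs, 3 were among the 5 most unequal. Counts per kb, an alternative chosen after seeing the data, gave 1, and the other rankings stayed within 1.5 times of 3. With 5 added to each count, YJL052C-A and TDH1 ranked 17, and YHR173C and ENO2 ranked 2.

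The planned search of promoter windows for motifs was not run, since no promoter sequence was used here. Leaving out a replicate was not possible with 1 table a group. No paired analysis was possible because the ribo depletion samples share 1 table and each poly(A) group had 1 library. Depth limits the low identifiers most, since 0 of 514 counts allows a share of up to 0.584%.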

Other observations

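The pairs ranked 4 to 6 had the same form, with a well-known gene at or near 0 beside a counted divergent neighbour. They were chosen after their values were seen. RNR2, which encodes the small subunit of ribonucleotide reductase, was at 0 in the 3 tables, with 1244 counts under YJL027C in ribo depletion, 1134 in TAP and 877 in CIP/TAP. PDB1, a pyruvate dehydrogenase subunit gene, had 0, 0 and 1 counts beside 2173, 2198 and 2708 under YBR221W-A. AAT1, the gene of the mitochondrial aspartate aminotransferase, was at 0 beside 1761, 791 and 1000 under YKL106C-A. In these pairs the counted identifier carries only a systematic name, as in 3 of the 5 pairs above. Not every pair near the top had this form. At rank 8 YGR035C, with only a systematic name, was at 0 beside YGR035W-A. At rank 9 the counted identifier was the named BIL2, with PUF4 at 0.

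Further down the ranking, some pairs had a named gene on both sides. NHP6A, a gene of an HMG-box chromatin protein, had 0, 1 and 7 counts beside 3172, 3976 and 5517 under SMK1, the gene of a kinase of sporulation. CDC10, a septin gene, had 10, 0 and 1 counts beside 11506, 710 and 998 under MRPL32, which encodes a mitochondrial ribosomal protein. KRS1, which encodes a lysyl-tRNA synthetase, was at 0 beside 4823, 299 and 274 under EHD3, although these genes start 726 bp apart. Of pairs with 1 systematic name, SIT1, a siderophore transporter gene, was at 0 beside 413, 455 and 373 under YEL067C, 880 bp away, and YFR006W was at 0 beside 372, 323 and 277 under SAD1.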
